A study of Curvularia clavata with 15 samples.

Results

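The comparison described here is that of the Δtah-1 mutant with the wild type (WT) of Curvularia clavata strain J1, a filamentous fungus, both grown on lignosulfonate. Its members are 6 of the 15 RNA-seq libraries of the series, chosen by genotype and medium as the labels give them, 3 of Δtah-1 and 3 of WT. Both groups were shaken at 200 rpm and 30 °C in 100 mL of Vogel's minimal medium with 2% lignosulfonate and 0.25% glucose, and their mycelia were taken on day 4. Every library therefore also comes from a culture with some glucose. The other 9 libraries, 3 each of the ΔCclaeA and Δrpn-4 mutants on the same medium and of WT on 2% glucose without lignosulfonate, entered the fits and serve below as points of reference. The sources used here do not say how the deletion was made, how many independent clones were used, or whether the 3 samples of a group were separate cultures. The p-values then cover only the spread among the 3 samples of each group, pooled over all 5 groups, and part of it may be technical.

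Lignosulfonate is a water-soluble, sulfonated form of lignin, the aromatic polymer of wood. Fungi attack phenolic parts of lignin with laccases, copper-containing oxidases that pass electrons from phenols to oxygen. The series looked for genes that control laccase activity, and tah-1 was one of 3 genes deleted for that purpose. In filamentous fungi the genes of a secondary metabolite pathway often lie side by side on a chromosome. The files list genes by ID only and pair no ID with a name, so no laccase, transporter or pathway can be named here, and genes are given by ID.

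Each library listed a value for 10170 IDs in FPKM, a fragment count scaled by transcript length and library total. The FPKM sum was 662880, 946538 and 700602 in Δtah-1 replicates 1, 2 and 3, against 919697, 948472 and 875068 in WT. The median FPKM was 21.4, 30.5 and 23.1 in Δtah-1, against 34.3, 33.5 and 30.9 in WT, so replicate 2 of the mutant lay close to WT and the other two lay lower. The groups did not overlap in the median (exact permutation test, two-sided, p = 0.1, the smallest that 3 against 3 libraries allow). The 10 most abundant IDs of each library held 7.83% ± 0.838 of the FPKM sum in Δtah-1 and 11.9% ± 0.152 in WT (SD, n = 3 each). Because library scale differed within the mutant group, results are given as deposited and after division by median-of-ratios size factors, which set the typical ID to the same level in every library. These factors were 0.807, 1.21 and 0.870 in Δtah-1, against 1.303, 1.28 and 1.18 in WT. Headers of the WT files name FPKM and those of the mutant files name no unit, and the sources used here do not say whether both kinds went through the same run of processing. Such a difference cannot be told apart from genotype.

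The tah-1 gene could not be picked out by name, so the genotype label was not checked against its own transcript. By level, 1 ID had under 1 FPKM in all 3 Δtah-1 libraries and at least 10 FPKM in all 9 other lignosulfonate libraries. This was yc1106_06359, with 0.91, 0 and 0.54 FPKM in Δtah-1 replicates 1, 2 and 3, against 308, 314 and 319 FPKM in WT. It had 71.3 to 81.0 FPKM in ΔCclaeA, 914 to 1006 FPKM in Δrpn-4 and 11.0 to 14.98 FPKM in WT on glucose. Whether yc1106_06359 is tah-1 was not tested.

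The loss of tah-1 went with differences in a large part of the transcriptome, in both directions. Of 9265 IDs tested, 2434 (26.3%) differed as deposited, at a limma adjusted p under 0.05 and at least 2-fold. As deposited 706 (7.62%) were higher and 1728 (18.7%) lower in Δtah-1, and after median-of-ratios scaling 1161 (12.5%) were higher and 814 (8.79%) lower (21.3% in all), so the balance of directions turned with the scaling. Rescaling to equal sums gave 1000 higher and 1098 lower. As deposited, the tested IDs had a median log2 fold change of -0.37. Without replicate 2 of the mutant the median as deposited was -0.51, and the calls were 591 higher (6.38%) and 2237 lower (24.1%). After scaling, leaving out replicate 2 gave 1208 higher (13.0%) and 762 lower (8.22%), again 21.3% in all, and 1074 of the higher and 675 of the lower calls were made with and without it. Of the tested IDs, 0 had calls of opposite sign between any of these 4 fits. Opposite calls would need at least 2-fold in each direction, while the median log2 fold changes of the fits lay between -0.51 and 0.007. The count is therefore a description and no test of agreement.

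**Figure D1:**
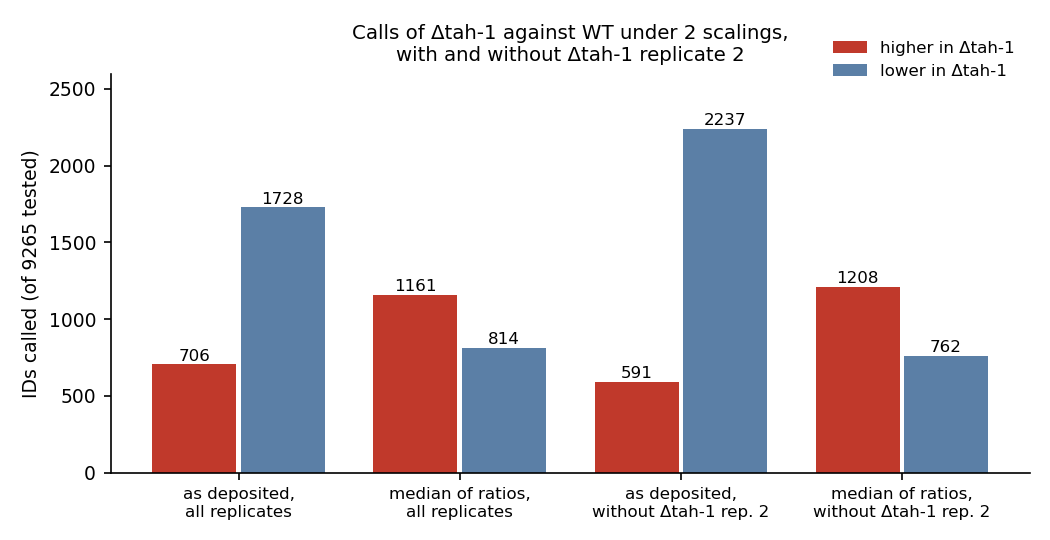
Number of IDs called higher (red) and lower (blue) in Δtah-1 than in WT on lignosulfonate, out of 9265 tested, under each of the 4 fits on the horizontal axis. As deposited the lower calls outnumber the higher ones, 1728 against 706, and after median-of-ratios scaling the higher calls outnumber the lower ones, 1161 against 814.

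The IDs called in the same direction in all 4 fits numbered 550 higher (5.94% of those tested) and 675 lower (7.29%), and only these are said below to have risen or fallen. The 4 fits are not 4 separate checks. With all libraries, all 706 IDs called higher as deposited were also called higher scaled. All 814 called lower scaled were also called lower as deposited. The 550 that rose had a median of 93.8, 107 and 100.3 FPKM in Δtah-1 replicates 1, 2 and 3, against 25.1, 24.3 and 24.3 FPKM in WT. Since these IDs were selected by their values, their levels are a description with no test. The 550 IDs together held 20.6% ± 1.41 of the FPKM sum in Δtah-1 and 4.89% ± 0.021 in WT. The 675 that fell had a median of 17.5, 24.96 and 18.4 FPKM in Δtah-1, against 85.6, 87.1 and 77.4 FPKM in WT, and held 6.21% ± 0.545 of the sum in Δtah-1 and 26.1% ± 0.777 in WT (SD, n = 3 each). The mutant thus had a larger share of its FPKM sum in the risen IDs and a smaller one in the fallen IDs in every library. The medians of the risen IDs in the other groups were 20.8 FPKM in ΔCclaeA, 20.8 in Δrpn-4 and 11.6 in WT on glucose, and those of the fallen IDs were 58.9, 41.5 and 57.2 FPKM. As a share of the FPKM sum, the fallen IDs held 17.9% in ΔCclaeA, 42.4% in Δrpn-4 and 16.6% in WT on glucose, so in Δrpn-4 their median was below WT on lignosulfonate and their share above it.

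Large changes were a minority. Taking for each ID its smallest fold over the 4 fits, 140 IDs rose and 103 fell by at least 4-fold, 39 rose and 24 fell by at least 8-fold, and 4 rose and 12 fell by at least 16-fold. Changed IDs occurred at all levels. The level classes below are set by means that include the compared libraries, so an ID can enter a high class through the group in which it is high, and the shares are a description. Of the 110 IDs with a mean over 1000 FPKM in all 15 libraries, 39 (35.5%) fell and 13 (11.8%) rose. In the class from 100 to 1000 FPKM 12.2% fell and 8.96% rose, from 10 to 100 FPKM 6.57% fell and 4.76% rose, and under 10 FPKM 2.70% fell and 6.33% rose. When only the 6 compared libraries set the level, 78 IDs passed 1000 FPKM, and 22 (28.2%) fell and 14 (17.9%) rose. The 39 abundant IDs that fell had a median of 240, 304 and 231 FPKM in Δtah-1, against 1887, 2039 and 1831 FPKM in WT. They had 476 to 561 FPKM in ΔCclaeA, 3452 to 4126 FPKM in Δrpn-4 and 597 to 837 FPKM in WT on glucose, so Δtah-1 was lowest but ΔCclaeA and WT on glucose were also below WT on lignosulfonate. Of the 905 IDs that were not tested, 354 were listed at 0 in all 15 libraries, and 86 reached 1 FPKM in any of the 6 compared libraries. The highest value of an untested ID in these 6 libraries was 129 FPKM.

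**Figure D2:**
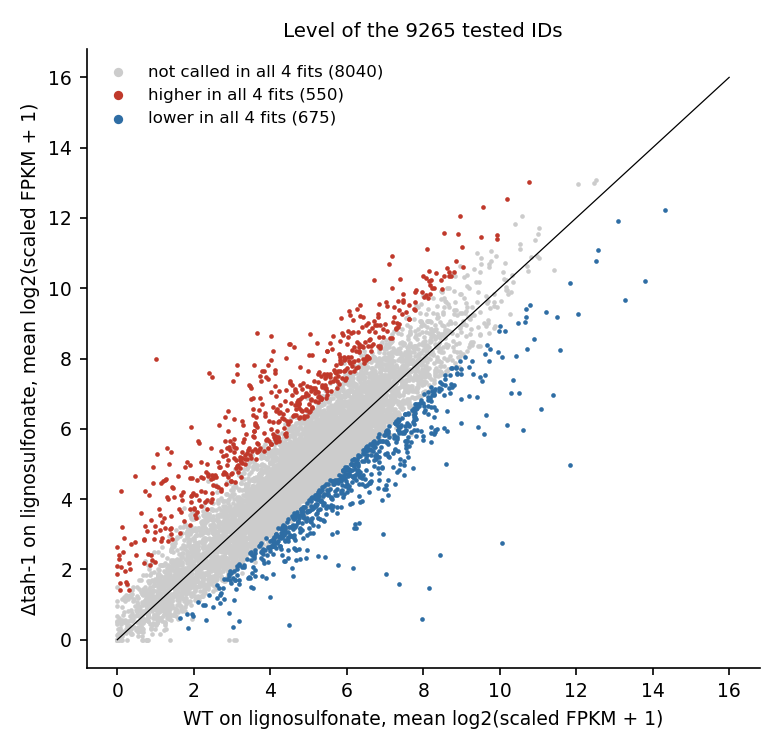
Mean log2(scaled FPKM + 1) of each tested ID in the 3 Δtah-1 libraries (vertical) and in the 3 WT libraries (horizontal) on lignosulfonate, after median-of-ratios scaling, with the line of equal level. The 550 IDs that rose in all 4 fits are red, the 675 that fell are blue and the rest grey, and red points lie above the line and blue points below it at low and high levels alike.

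The largest rises and falls were taken as the 2 IDs in each direction with the largest smallest change over the 4 fits. yc1106_01883 had 127, 560 and 192 FPKM in Δtah-1 replicates 1, 2 and 3, against 1.84, 1.19 and 0.87 FPKM in WT. The groups did not overlap, and replicate 2 was the highest mutant library by a wide margin. The log2 fold change was 6.73 (SE 0.38, limma adjusted p = 4.18e-09) as deposited, 6.98 (SE 0.29) scaled, and 6.12 and 6.55 in the same fits without replicate 2. In no other group did it exceed 2.36 FPKM.

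yc1106_01726 had 160, 187 and 199.9 FPKM in Δtah-1, against 5.38, 4.46 and 6.27 FPKM in WT. As deposited, the 3 mutant libraries lay close together here. The log2 fold change was 4.85 (SE 0.18, limma adjusted p = 8.6e-11) as deposited and 5.19 (SE 0.20) scaled. It stood at 4.26 to 5.39 FPKM in ΔCclaeA, 4.55 to 6.68 in Δrpn-4 and 6.01 to 9.61 in WT on glucose. Both of these IDs were higher in Δtah-1 than in either other mutant when these were compared directly, by log2 fold changes of 4.39 to 7.86 over both scalings.

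yc1106_01890 had 3.29, 8.06 and 5.81 FPKM in Δtah-1, against 1453, 1247 and 1332 FPKM in WT. Its log2 fold change was -7.71 (SE 0.20, limma adjusted p = 1.58e-12) as deposited and -7.33 (SE 0.14) scaled. In WT on glucose it was listed at 0.12, 0.16 and 0 FPKM, so all 3 mutant libraries lay above the glucose libraries and far below WT on lignosulfonate. No direct contrast with WT on glucose was made. The ID had 3693 to 4155 FPKM in ΔCclaeA and 625 to 654 FPKM in Δrpn-4. yc1106_06359, described above, fell by 7.78 on the log2 scale (SE 0.19, limma adjusted p = 1.2e-12) as deposited, and scaled the log2 fold change was -7.38 (SE 0.20). Against ΔCclaeA and Δrpn-4 directly it was lower by log2 fold changes of -5.73 and -9.40 as deposited. Since replicate 2 listed it at 0 FPKM, its fold change depends on the pseudocount of 1 FPKM.

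**Figure D3:**
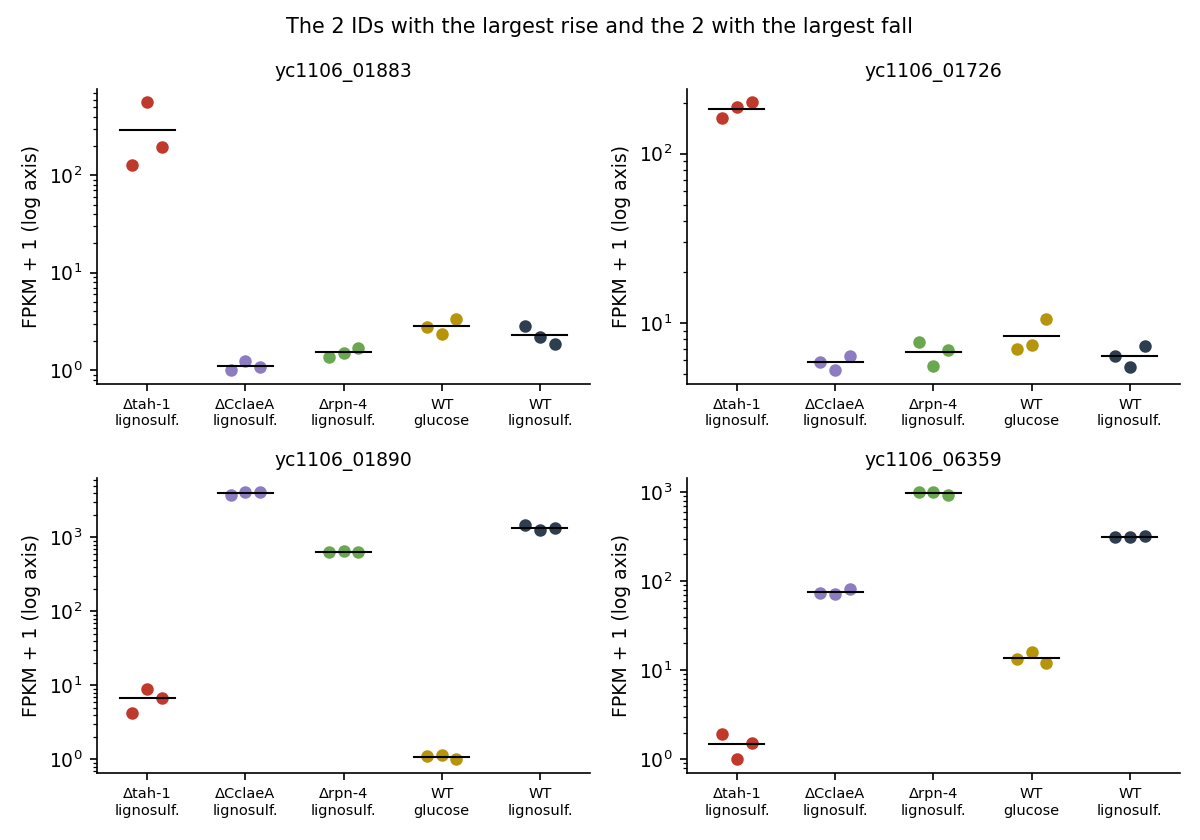
FPKM + 1 on a log axis of the 2 IDs with the largest rise (top) and the 2 with the largest fall (bottom) in every library, with Δtah-1 at the left, WT on lignosulfonate at the right and a bar at each group mean. The 3 Δtah-1 points lie apart from the points of all 4 other groups for yc1106_01883, yc1106_01726 and yc1106_06359, and for yc1106_01890 they lie above WT on glucose and below the other groups.

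Few IDs were near 0 in one group and well above it in the other. yc1106_06359 and yc1106_01886 had under 1 FPKM in all 3 Δtah-1 libraries and at least 10 FPKM in all 3 WT libraries. The opposite pattern was met by yc1106_00272, an ID chosen after its values were seen, with 17.5, 59.3 and 11.5 FPKM in Δtah-1, against 0, 0.70 and 0.82 FPKM in WT (log2 fold change 4.04, SE 0.45, limma adjusted p = 2.59e-06). Its Δtah-1 libraries spread over a wide range, with replicate 2 the highest, and without replicate 2 the log2 fold change was 3.38. The ID had 3.10 to 5.86 FPKM in Δrpn-4 and 0.88 to 2.64 FPKM in ΔCclaeA, both also above every WT library.

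Some IDs that rose or fell had neighbours in the ID numbering that moved with them, although the sources used here do not say whether neighbouring numbers are neighbours in the genome. Of the 550 IDs that rose, 170 (30.9%) stood next to another that rose, and of the 675 that fell, 170 (25.2%) stood next to another that fell. At least 4 consecutive IDs moved together in 3 runs upward and 3 runs downward, 30 IDs in all. Of all tested IDs 5.94% rose and 7.29% fell, which is not the share that stands next to a called ID. That share was not computed, so these counts are a description. No test of adjacency was made.

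The longest run upward held the 8 IDs from yc1106_02303 to yc1106_02310. Their median was 162, 520 and 178 FPKM in Δtah-1 replicates 1, 2 and 3, against 18.3, 18.4 and 15.8 FPKM in WT. As deposited, every mutant library was above every WT library for each of the 8 IDs. Replicate 2 was the highest mutant library for each, and it also had the largest size factor in Δtah-1, 1.21 against 0.807 and 0.870. The log2 fold changes ran from 2.58 to 4.70 as deposited and from 2.97 to 5.08 scaled, and the largest limma adjusted p of any of the 8 in the 4 fits was 6.45e-06. yc1106_02310, at the end of the run, had 277, 772 and 297 FPKM in Δtah-1, against 16.8, 14.03 and 12.6 FPKM in WT, and 0.39, 0.54 and 0.24 FPKM in WT on glucose. Without replicate 2 its log2 fold change was 4.23 as deposited, against 4.70 with it.

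The median of this run was 8.79 to 10.6 FPKM in ΔCclaeA, 18.6 to 19.5 in Δrpn-4 and 2.34 to 2.56 in WT on glucose. All 8 IDs were higher in Δtah-1 than in ΔCclaeA and than in Δrpn-4 in the direct contrasts, under both scalings. In those contrasts 34.8% of tested IDs were called in either direction against ΔCclaeA and 31.3% against Δrpn-4 as deposited, and 32.6% and 26.2% after scaling. By direction 13.7% of tested IDs were higher against ΔCclaeA and 23.7% against Δrpn-4 as deposited, and 18.0% and 12.4% after scaling. Of the IDs on its edges, yc1106_02311 had a log2 fold change of 0.02 as deposited and 0.42 scaled. yc1106_02302 had 0.67 as deposited, short of 2-fold, and 1.06 scaled (limma adjusted p = 0.000612), and it was called higher than in both other mutants under both scalings, so the run had no sharp edge on that side. Without replicate 2 of the mutant the log2 fold changes of the 8 IDs ran from 2.03 to 4.45 as deposited, and yc1106_02304 moved by over 1.5-fold, to 3.70.

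The other runs upward were weaker. The 5 IDs from yc1106_04333 to yc1106_04337 had a median of 18.3, 40.5 and 19.8 FPKM in Δtah-1, against 7.43, 5.85 and 5.48 FPKM in WT, and their log2 fold changes were 1.72 to 3.03 as deposited and 2.07 to 3.30 scaled. The 4 IDs from yc1106_09508 to yc1106_09511 had a median of 54.9, 87.5 and 61.2 FPKM in Δtah-1, against 10.4, 9.11 and 11.9 FPKM in WT, with log2 fold changes of 1.28 to 2.66 as deposited and 1.65 to 3.01 scaled. Both runs were low in WT on glucose, with medians of 1.29 to 2.61 FPKM and 1.43 to 2.31 FPKM. All 9 of these IDs were higher in Δtah-1 than in each other mutant as deposited, and after scaling 8 of the 9 were higher than in Δrpn-4, the exception being yc1106_09511 (log2 fold change 0.75).

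The longest run downward held the 5 IDs from yc1106_01886 to yc1106_01890. Their median was 3.29, 8.06 and 5.15 FPKM in Δtah-1, against 362, 351 and 349 FPKM in WT. yc1106_01888, the most abundant of them, had 20.0, 53.2 and 22.1 FPKM in Δtah-1, against 4670, 4425 and 4553 FPKM in WT, a log2 difference of -7.26 (SE 0.26, limma adjusted p = 4.27e-11) as deposited and of -6.86 (SE 0.18) scaled. In WT on glucose it had 4.31, 4.38 and 3.14 FPKM. As deposited, the median of the 5 IDs was 656 to 714 FPKM in ΔCclaeA, above WT on lignosulfonate. In Δrpn-4 it was 181 to 184 FPKM, below WT on lignosulfonate. ΔCclaeA and Δrpn-4 were not tested against WT here. All 5 IDs were lower in Δtah-1 than in ΔCclaeA and than in Δrpn-4 in the direct contrasts under both scalings, where 21.2% and 7.65% of tested IDs were lower as deposited and 14.6% and 13.8% after scaling.

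Several IDs close to this run on either side moved the other way. The strongly risen yc1106_01883 stands 3 numbers before it. yc1106_01884, an ID chosen after its values were seen like the next 2, had 13.0, 35.5 and 17.3 FPKM in Δtah-1, against 1.55, 1.54 and 1.48 FPKM in WT (log2 fold change 3.06, SE 0.25). After the run, yc1106_01891 had 11.1, 14.96 and 14.6 FPKM in Δtah-1, against 7.10, 3.56 and 6.71 FPKM in WT (log2 fold change 1.14, SE 0.20), and yc1106_01892 had 8.85, 8.53 and 11.0 FPKM, against 4.50, 3.51 and 3.85 FPKM (log2 fold change 1.08, SE 0.15). All 3 rose in all 4 fits, and no mutant library overlapped a WT library. Farther out the pattern was mixed. yc1106_01881 had a log2 fold change of -1.41 as deposited and -1.04 scaled but missed 2-fold in the scaled fit without replicate 2 (-0.92), yc1106_01882 had -0.12 and 0.27, and yc1106_01893 had -1.12 and -0.80. yc1106_01885, between the risen IDs and the run, was not tested.

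**Figure D4:**
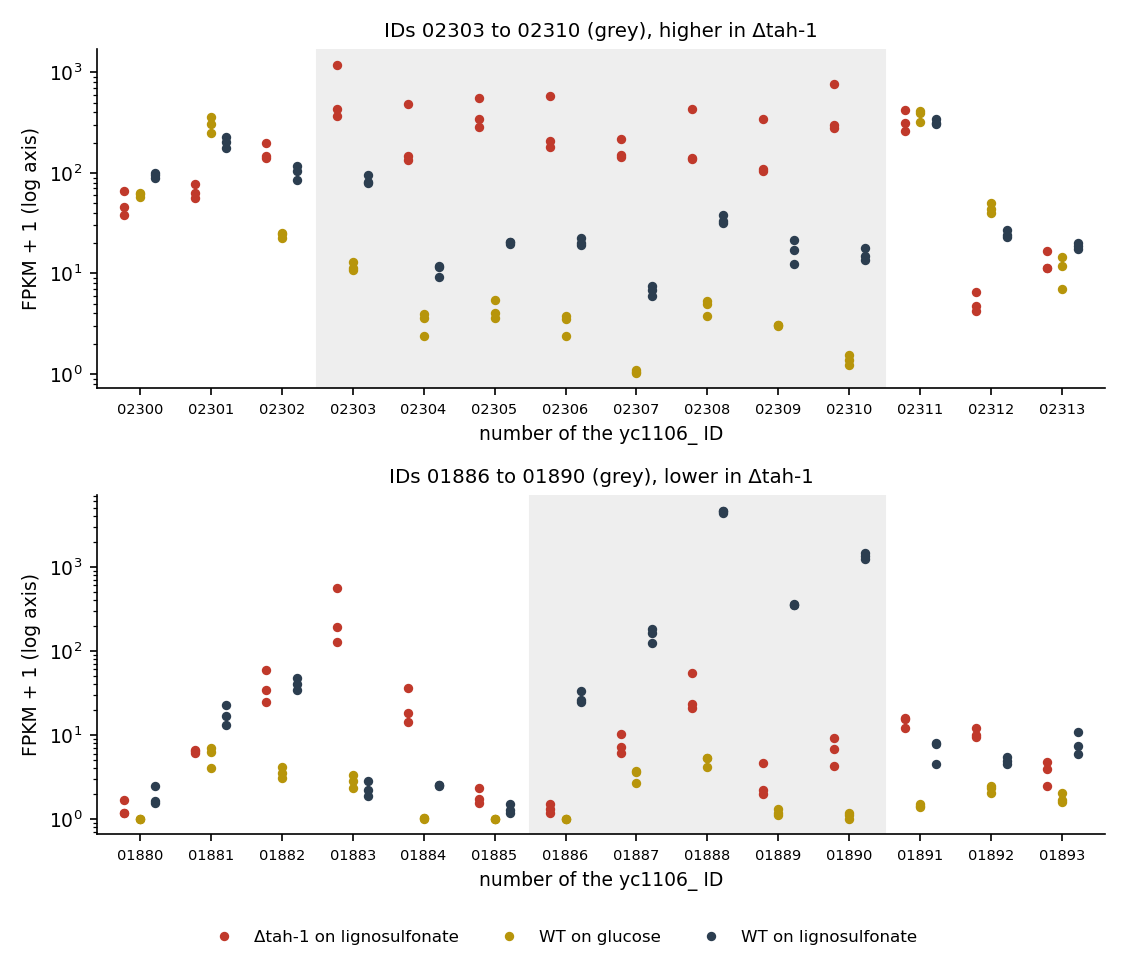
FPKM + 1 on a log axis, 1 point per library, for consecutive IDs around the longest run upward (top, grey, yc1106_02303 to yc1106_02310) and the longest run downward (bottom, grey, yc1106_01886 to yc1106_01890). Δtah-1 (red) lies above WT on lignosulfonate (dark) throughout the upper grey block and below it throughout the lower one, where it lies above WT on glucose (ochre). yc1106_01883 and yc1106_01884 just outside the lower block are highest in Δtah-1.

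The 4 IDs from yc1106_01034 to yc1106_01037 had a median of 47.0, 66.1 and 54.1 FPKM in Δtah-1, against 996, 1155 and 1223 FPKM in WT. yc1106_01037 had 86.8, 83.2 and 95.1 FPKM in Δtah-1, against 2275, 2644 and 3310 FPKM in WT (log2 fold change -4.93, SE 0.17, limma adjusted p = 2.35e-11 as deposited, and -4.52 scaled). This run was unlike the last one in the other mutants. yc1106_01037 had 49.9 to 61.2 FPKM in ΔCclaeA and 11852 to 13265 FPKM in Δrpn-4, and directly against ΔCclaeA only yc1106_01035 of the 4 was called lower in Δtah-1 under either scaling. Against Δrpn-4 all 4 were lower. For yc1106_01037 the direct log2 fold change against ΔCclaeA was 0.67 as deposited and 0.95 scaled, both short of 2-fold.

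The 4 IDs from yc1106_01616 to yc1106_01619 fell less and were at low levels in WT too. Their median was 4.21, 5.34 and 4.89 FPKM in Δtah-1, against 18.2, 18.3 and 18.1 FPKM in WT, with log2 fold changes of -2.02 to -1.71 as deposited and -1.64 to -1.36 scaled. The largest limma adjusted p of the 4 in the 4 fits was 0.00385. Directly against ΔCclaeA 2 of the 4 were lower in Δtah-1 and against Δrpn-4 3 of the 4, under either scaling, beside the shares of all tested IDs given above for these contrasts.

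Replicate 2 of Δtah-1 stood apart from replicates 1 and 3 after scaling as well. Across the 9265 tested IDs, the Spearman correlation of scaled values was 0.953 between replicates 1 and 2, 0.961 between replicates 2 and 3 and 0.985 between replicates 1 and 3, as a description of these libraries. In WT on lignosulfonate the 3 pairs had 0.976 to 0.990. Replicates 1 and 2 of Δtah-1 differed by over 2-fold at 8% of IDs, replicates 2 and 3 at 6.10% and replicates 1 and 3 at 1.52%. The median SD over IDs, on the scaled log2 scale, was 0.235 in Δtah-1 and 0.148 in WT on lignosulfonate.

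After scaling, the departure of replicate 2 was mostly downward. Such IDs were not counted as deposited, where the FPKM sum of replicate 2 was the largest of the Δtah-1 libraries. Scaled, replicate 2 lay over 2-fold below both other Δtah-1 libraries at 338 IDs and over 2-fold above both at 61. No other library of the series was over 2-fold below its fellows at more than 168 IDs, which was replicate 3 of WT on glucose. The 338 IDs had a median scaled FPKM of 67.9, 24.0 and 64.5 in Δtah-1 replicates 1, 2 and 3, against 44.3, 49.4 and 46.0 in WT. Replicate 2 was thus below every WT library while replicates 1 and 3 were above them, and the medians of the other 9 libraries lay between 59.5 and 74.8. Of the 338 IDs, 52 rose (15.4%) and 20 fell (5.92%) in all 4 fits, where 5.94% and 7.29% of all tested IDs did. The 61 IDs had a median scaled FPKM of 11.0, 32.2 and 12.9 in Δtah-1, against 8.08, 8.08 and 6.99 in WT, and 13 of them rose (21.3%) and 4 fell (6.56%). Both sets were chosen by these values, so their levels are a description.

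**Figure D5:**
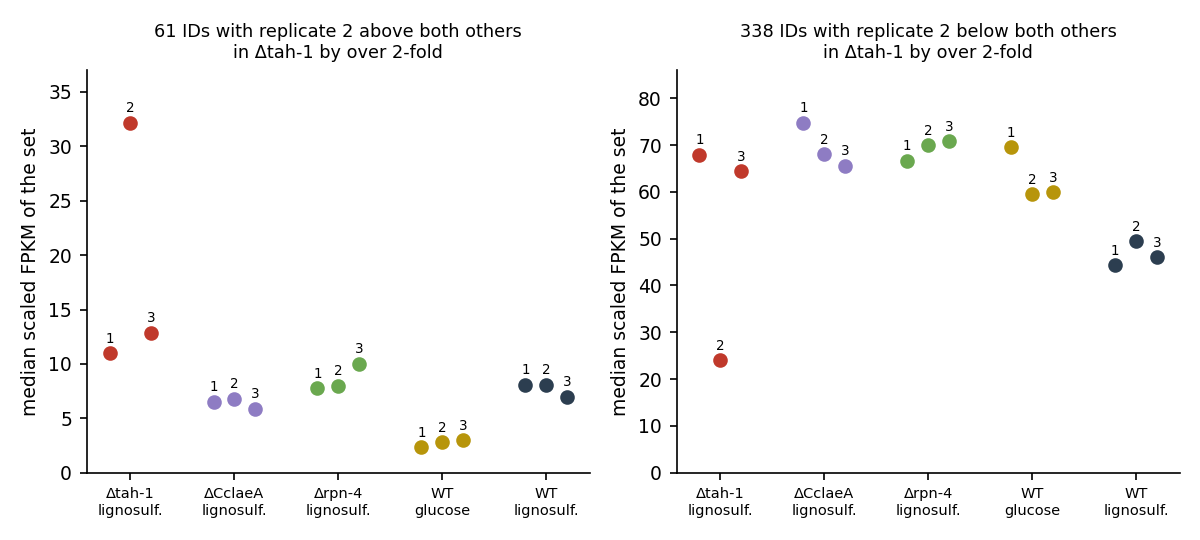
Median scaled FPKM per library, with replicate numbers, of the 61 IDs (left) and 338 IDs (right) at which replicate 2 of Δtah-1 lay over 2-fold above or below both other Δtah-1 libraries. In the right panel replicate 2 is at 24.0, under every other library of the series, and in the left panel it is at 32.2, above every other library.

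Most calls made without replicate 2 were nevertheless met by it. Of the 1208 IDs called higher without it after scaling, its own value was above all 3 WT libraries at 1155 (95.6%), where it was above them at 42.2% of all tested IDs. Of the 762 called lower, it was below all 3 WT libraries at 744 (97.6%), against 42.1% of all tested IDs. At least 2-fold from the WT mean on the same side it stood at 876 of the 1208 and at 575 of the 762. Of all 9265 tested IDs it stood so at 1228 above and at 1225 below. The same WT libraries entered the calls and this count, so it describes replicate 2 and is no separate test.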

How the data were processed

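RNA-seq libraries of mycelia were described by genotype, carbon source and sample number in the labels. The deposited values are FPKM, made by the authors per library, per the file headers of the 6 WT files; the 9 mutant headers name no unit. Tools in the submitters' processing notes are RSEM 1.3.3, HISAT2 2.1.0, fastp 0.19.5 and DESeq2, with no roles stated. The build, the annotation and the step that made the FPKM were not given in the sources used here. Read totals are unknown. The ratios of values between 0.08 and 0.6 FPKM gave relative depths of 0.923 to 1.17 in the 6 compared libraries, but only 11.8% to 19.7% of IDs lay within 0.05 (log2) of these, so whole fragments were not recovered and no count model was run.

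IDs with at least 1 FPKM in at least 3 of 15 libraries were tested. A mean per group was fitted to log2(FPKM + 1) of all 15 libraries with limma 3.58.1 (trend, robust) in R 4.3.3, giving 10 residual degrees of freedom. The spread was pooled over all groups. Its median SD after scaling was 0.235 in Δtah-1, 0.148 in WT on lignosulfonate, 0.0988 in ΔCclaeA, 0.109 in Δrpn-4 and 0.209 in WT on glucose. With only the 6 compared libraries, as deposited, limma adjusted p rose from 4.18e-09 to 3.43e-05 for yc1106_01883. For yc1106_02308 it rose from 6.45e-06 to 0.00120. The log2 scale with its pseudocount of 1 understates changes of low IDs. Calls needed a Benjamini-Hochberg adjusted p under 0.05 over all tested IDs and at least 2-fold. Every fold change is Δtah-1 over its comparator. Size factors were medians of ratios over IDs above 0 in all 15 libraries. The fit was tested on simulated data. Figures used matplotlib 3.10.9.

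Named IDs were the 2 rises and 2 falls with the largest smallest change over the 4 fits, and all runs of at least 4 consecutive IDs called one way in all 4 fits. Members, lists and tests were chosen with earlier results of these data known. Lists of genes by function were not used, since no ID is paired with a name. Within replicate pairs of the compared groups at most 0.723% of values were identical.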

Additional observations from a re-analysis of the deposited data

How the results depend on the processing

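Counts of calls depended on the fold limit and on scaling, and the balance of directions turned with scaling. As deposited 706 IDs were higher and 1728 lower in Δtah-1. Median-of-ratios scaling gave 1161 and 814, with only the 6 compared libraries 1148 and 809, and rescaling to equal sums left 1098 lower. With no minimum fold 1412 were higher and 4092 lower, and at 4-fold or more 180 and 232. Leaving out each library in turn gave 591 to 826 higher and 1548 to 2237 lower as deposited. After scaling it gave 1162, 1208 and 1138 higher and 913, 762 and 865 lower without Δtah-1 replicates 1, 2 and 3, and 1155, 1132 and 1176 higher and 830, 788 and 849 lower without WT replicates 1, 2 and 3. All of these but the fit without Δtah-1 replicate 2 were added after the data were seen. A pseudocount of 0.1, no filter, array weights and leaving out the 100 most abundant IDs kept both counts within 1.5 times. Array weights gave replicate 2 of Δtah-1 the lowest weight of all libraries, 0.068. Against Δrpn-4 the direct contrast had 2194 higher and 709 lower as deposited, and 1149 and 1280 scaled. Runs of at least 4 IDs numbered 3 in each direction; the scaled calls alone gave 18 upward and the deposited calls alone 25 downward. The causes of these shifts were not tested, apart from the thresholds, which change the count by construction.

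With the replicate number as a block, 712 IDs were higher and 1732 lower as deposited, and 1137 and 791 scaled, the scaled pair added after the data were seen. Deviations of same-numbered libraries from their group means correlated at -0.22, -0.15 and 0.25 for numbers 1, 2 and 3, and not every library correlated best with its own number, so the numbers were not taken to pair the samples.

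All 33 named IDs and run members kept their direction under the alternatives run. Of 693 such values 1 fell short of the 2-fold limit, that of yc1106_09510 with array weights (log2 fold change 0.97, limma adjusted p = 0.000319). These IDs were chosen by their calls in the 4 fits, and some of those fits are among the alternatives. The other alternatives refit the same libraries, so the tally is a description and no separate test. FPKM gives no read depth, so the counting error of low IDs is unknown.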
